A study of Mus musculus with 11 samples.

Results

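The genes described are the 6 members of the C/EBP (CCAAT/enhancer-binding protein) group that carry a row in all 11 deposited expression tables, namely Cebpa, Cebpb, Cebpd, Cebpg, Cebpz and Ddit3, taken by gene symbol out of 29955 symbols. Cebpe, the other classical family member, was also listed, at an FPKM of 0 in all 11 samples. FPKM scales the fragments on a gene by its exon length and by the total mapped, so levels of different genes can be set side by side per length.

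The samples were im-scWAT cells, a line of mouse fat cell precursors from the inguinal depot that carries SV40 large T antigen. The time course had 6 samples, at day 0, day 4 and day 8 of adipocyte differentiation, each with and without 0.5 μM rosiglitazone (ROS), a PPARγ ligand that gives beige adipocytes, while cultures without it are called white adipocytes. Because cells met ROS only once induction began, both day 0 samples had been treated alike, and they form the only pair in the time course, sample 1 belonging to the ROS series and sample 2 to the series without it. The other 5 samples were day 8 cultures with ROS in which a short hairpin RNA against the histone demethylase Jmjd1a (Kdm3a), driven by the mouse U6 promoter, had been combined with a retrovirus carrying V5-tagged human JMJD1A under the viral LTR, with drug selection after each. They expressed wild-type hJMJD1A (WT A and WT B), S265A, in which the serine phosphorylated by protein kinase A is replaced by alanine, S265D, an acidic replacement of the same serine, or S265D-H1120Y, in which a histidine of the catalytic site is also replaced. Apart from day 0 and the WT pair each condition had 1 sample, and the labels do not say whether the WT samples came from separate cultures, so p-values measure only the spread between these samples, which may be technical. The labels describe ROS as withdrawn for the last day before harvest at day 8, whereas the study's methods have it present throughout.

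Depth went from 3.10 to 5.29 Gb of mapped bases per sample with a median of 4.64 Gb. The day 0 pair agreed closely, with a median gap of 0.13 on the log2 scale over 15030 genes and 2.16% of genes at least 2-fold apart. The WT pair did not, with a median gap of 0.51 over 15837 genes and 22.8% of genes at least 2-fold apart, and every value set against WT is therefore also given for each WT sample where it matters. The mouse Kdm3a row stood at 15.1 to 21.1 FPKM in the untransduced induced cultures and at 13.0 to 28.5 FPKM in the transduced ones. Reads of mouse Kdm3a and of the human transgene cannot be told apart in that row, so it does not check the labels. Adipocyte markers were present in every induced culture, with a summed FPKM of 11464 to 36999 over 6 genes against at most 264.97 at day 0. Fabp4 carried most of that sum, and without it the sum was 2066 to 5597 FPKM against at most 17.1. The leukocyte markers Ptprc and Emr1 and the muscle markers Myod1, Myog and Ckm were listed at 0 in all 11 samples. Other markers of these lineages were detected. Acta1, on the muscle list, peaked at 19.3 FPKM (WT B), while WT A had 1.40. On the leukocyte list Cd14 was highest at day 0, with 5.56 and 5.42 FPKM, and Cd68 peaked at 21.7 FPKM (S265D-H1120Y). The endothelial marker Pecam1 also peaked there, at 3.47 FPKM. Epithelial markers summed to at most 0.839 FPKM.

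C/EBP proteins are basic leucine zipper (bZIP) factors that bind DNA as dimers. In adipogenesis C/EBPβ and C/EBPδ are classically induced first, by glucocorticoid and by agents that raise cAMP, and are followed by C/EBPα and PPARγ, which activate each other and the genes of the mature fat cell. C/EBPγ lacks most of an activation domain and pairs with other bZIP factors, including ATF4. Ddit3 encodes CHOP, which is made under endoplasmic reticulum stress and amino acid shortage and forms dimers that do not bind the usual C/EBP site. Cebpz shares the name but not the structure: its product is a nucleolar protein of ribosome assembly without the leucine zipper.

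All coordinates are from mm9. Cebpa, on the plus strand at chr7:35904312-35906951, and Cebpb, on the plus strand at chr2:167514415-167515918, have 1 exon each. Cebpd lies on the plus strand at chr16:15887379-15889638, and the deposited tables class it as coding, whereas the mm9 annotation used here classes it as a pseudogene and splits it into 2 exons. Cebpg lies on the minus strand at chr7:35831441-35841585, 62726 bases from Cebpa, and has 2 exons. Cebpz, on the minus strand at chr17:79318343-79336410, has 16 exons, and Ddit3, on the plus strand at chr10:126727849-126733344, has 4. The annotation puts a gene of the opposite strand over part of 4 of the 6, with 908 bases of Tmem189 on the start of Cebpb and, over the ends of the other 3, 319 of 2310008H04Rik on Cebpd, 2035 of 1110001A16Rik on Cebpz and 68 of Mars on Ddit3. The authors calculated FPKM by strand, and the antisense rows of these loci held at most 13.3% (Cebpz) and otherwise at most 6.13% (Cebpa) of the sense FPKM.

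The 250 bases before the start of Cebpa, Cebpb, Cebpg and Ddit3 are shown, the stretch that precedes the start of RNAs that were higher in every induced culture than at day 0. They are from the RefSeq promoter table (GRCm38.p6), in which 4 of the 6 members were matched, and each matched 1 place in mm9, where it ends at the first base before the deposited transcript start. Capitals mark TGACG (the core of a cAMP response element), CCAAT and TATAAA on either strand. Cebpd and Cebpz are named only.
Cebpa, chr7:35904062-35904311, plus strand: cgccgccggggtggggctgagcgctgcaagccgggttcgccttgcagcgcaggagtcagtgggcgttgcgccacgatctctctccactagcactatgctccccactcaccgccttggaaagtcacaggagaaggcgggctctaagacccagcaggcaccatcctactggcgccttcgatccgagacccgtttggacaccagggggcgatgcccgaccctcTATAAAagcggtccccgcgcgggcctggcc
Cebpb, chr2:167514165-167514414, plus strand: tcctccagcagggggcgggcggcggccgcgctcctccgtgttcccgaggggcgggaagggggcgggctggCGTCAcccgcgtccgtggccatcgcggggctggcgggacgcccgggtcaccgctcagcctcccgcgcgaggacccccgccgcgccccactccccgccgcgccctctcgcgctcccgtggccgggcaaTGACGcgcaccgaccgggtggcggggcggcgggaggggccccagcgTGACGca
Cebpg, chr7:35841586-35841835, minus strand: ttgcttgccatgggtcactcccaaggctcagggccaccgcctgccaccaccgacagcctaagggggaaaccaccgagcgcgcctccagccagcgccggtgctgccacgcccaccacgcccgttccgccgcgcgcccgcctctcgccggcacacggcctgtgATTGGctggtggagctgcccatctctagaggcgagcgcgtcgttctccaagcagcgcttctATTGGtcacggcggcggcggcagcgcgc
Ddit3, chr10:126727599-126727848, plus strand: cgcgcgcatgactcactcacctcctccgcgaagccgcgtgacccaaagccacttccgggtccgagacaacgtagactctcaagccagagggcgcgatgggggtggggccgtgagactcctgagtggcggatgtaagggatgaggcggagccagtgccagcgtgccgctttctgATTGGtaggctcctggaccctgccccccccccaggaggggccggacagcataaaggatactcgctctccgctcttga

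TGACG or its complement CGTCA stood 3 times in the Cebpb window and in none of the other 3, and 17.9% of 32536 mouse promoter windows of the same length held it. CCAAT or ATTGG stood 2 times in the Cebpg window and 1 time in that of Ddit3, against 33.8% of windows with a match. TATAAA stood 1 time, in the Cebpa window (at position -30 from the start), against 12.3% of windows. GGGCGG (the GC box) or CCGCCC stood 5 times in the Cebpb window, against 33.0% of windows. TTGCNNAA (a strict form of the site of C/EBP dimers), TGATGNAA (a form of the composite site of C/EBP and ATF factors) and CACGTG (the E-box) were also searched. They or their complements had no match in the 4 windows, and were found in 9.57%, 3.40% and 6.04% of all windows. Only exact matches were counted, so a site that departs from these strings, such as a looser C/EBP site, can be present. The 4 windows were rich in G and C, at 64.8% to 81.6% against a median of 52.4% over all windows. These matches are letters in a window, and no binding was measured in these samples.

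In preadipocytes Cebpb and Ddit3 were the abundant members, and in induced cultures Cebpa joined them. The comparison of day 0 with every later culture asked which members differ between preadipocytes and the 9 induced cultures. In limma on log2(FPKM + 0.1), a scale that understates changes of genes near 0.1 FPKM, 4 of the 6 genes were called higher and 0 lower at an adjusted p of 0.05, where 16.5% of 17075 genes tested were called higher and 17.7% lower. Differences in day, ROS and transduction among the 9 induced cultures count as spread in this test, which had 9 residual degrees of freedom.

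Cebpa, the factor of terminal fat cell differentiation, was close to silent in preadipocytes, at 0.789 and 1.04 FPKM. At day 4 it stood at 244 FPKM without ROS and 270.0 FPKM with it, and at day 8 at 200.2 and 281 FPKM. In the transduced cultures it was 149.99 FPKM in WT A, 83.3 in WT B, 118 in S265A, 86.4 in S265D and 43.2 in S265D-H1120Y. Every induced culture lay far above day 0, and the transduced cultures all lay below the untransduced ones. The difference between induced cultures and day 0 was 7.12 ± 0.61 (log2, SE, adjusted p = 6.04e-06, limma, n = 9 and 2), and 51 of the 17075 genes moved further. Within the time course alone it was 7.94 (adjusted p = 9.69e-06).

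Cebpb, the early activator of the programme, was already abundant at day 0, at 28.4 and 32.2 FPKM. It was 66.0 FPKM at day 4 and 77.4 at day 8 without ROS, and 68.9 and 87.4 FPKM with ROS. The 5 transduced cultures covered the same range, with 65.7 FPKM in WT A, 60.4 in WT B, 89.9 in S265A, 72.5 in S265D and 68.1 in S265D-H1120Y. Cebpb rose by 1.26 ± 0.19 on the log2 scale (adjusted p = 0.000407, limma), 2.39-fold, and none of the 9 induced cultures overlapped with day 0. The share of all genes without such overlap was not counted, here or for the other members.

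Cebpg, the partner-forming member, behaved much as Cebpb in size and evenness. Its FPKM was 7.12 and 6.10 at day 0, 19.9 and 17.8 at days 4 and 8 without ROS, and 19.1 on both days with ROS. In WT A it was 14.7 FPKM, in WT B 17.4, in S265A 16.3, in S265D 21.6 and in S265D-H1120Y 19.6. The rise was 1.46 ± 0.18 (log2, adjusted p = 0.000105, limma), 2.75-fold, with no overlap. Among the 9 induced cultures the highest value was 1.47 times the lowest, against 1.49 for Cebpb, 6.52 for Cebpa and 9.54 for Ddit3.

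Ddit3 (CHOP) was the most abundant member in preadipocytes per length, with 41.0 and 39.7 FPKM. It was 81.2 FPKM at day 4 and 182 at day 8 without ROS, and 75.6 and 120.3 FPKM with ROS. The transduced cultures ranged widely, from 112 FPKM in WT A through 280.4 in S265A and 281 in S265D to 497 in WT B and 721 in S265D-H1120Y. All 9 induced cultures lay above day 0, and the difference was 2.28 ± 0.74 (log2, adjusted p = 0.0327, limma). The call depended on both day 0 samples: without sample 1 the adjusted p was 0.170 and without sample 2 it was 0.184. It was also lost without a filter on low values (0.0997), in a range of 0.0244 to 0.184 over 12 alternatives.

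Cebpd, the other early activator, was low at day 0, at 2.09 and 1.67 FPKM. In the untransduced cultures it reached 24.0 FPKM at day 4 and 15.1 at day 8 without ROS, and 16.4 and 15.5 FPKM with ROS. The transduced cultures stayed much lower, at 2.84 FPKM in WT A, 4.65 in WT B, 4.37 in S265A, 5.03 in S265D and 3.67 in S265D-H1120Y, although still above both day 0 samples. With all samples the difference of 1.99 ± 0.74 (log2) missed the threshold (adjusted p = 0.0542, limma). In the 6 samples of the time course, a set chosen after the values were seen, it was 3.15 with an adjusted p of 0.000301, and it also passed with median-of-ratios scaling (adjusted p = 0.0392), with a mean-variance trend (0.0473) and without WT A (0.0319), in a range of 0.000301 to 0.274 over 12 alternatives.

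Cebpz, the nucleolar namesake, was in no induced culture above both day 0 samples. It stood at 18.9 and 16.0 FPKM at day 0, at 17.0 and 10.9 at days 4 and 8 without ROS, and at 13.5 and 9.76 with ROS. It was 6.50 FPKM in WT A, 14.8 in WT B, 12.7 in S265A, 11 in S265D and 12.3 in S265D-H1120Y. The groups overlapped, and the difference of -0.57 ± 0.29 (log2) did not pass the test (adjusted p = 0.1496, limma). Of 15 other genes of nucleolar ribosome assembly, 5 were lower and 0 higher in induced cultures, where 17.7% and 16.5% of all genes tested were. Their median was -0.56 against 0.01 over all genes tested. Nop56 (-1.16), Fbl (-1.02) and Nop58 (-1.01), which belong to the box C/D particles that modify ribosomal RNA, were among the 5.

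**Figure D1:**
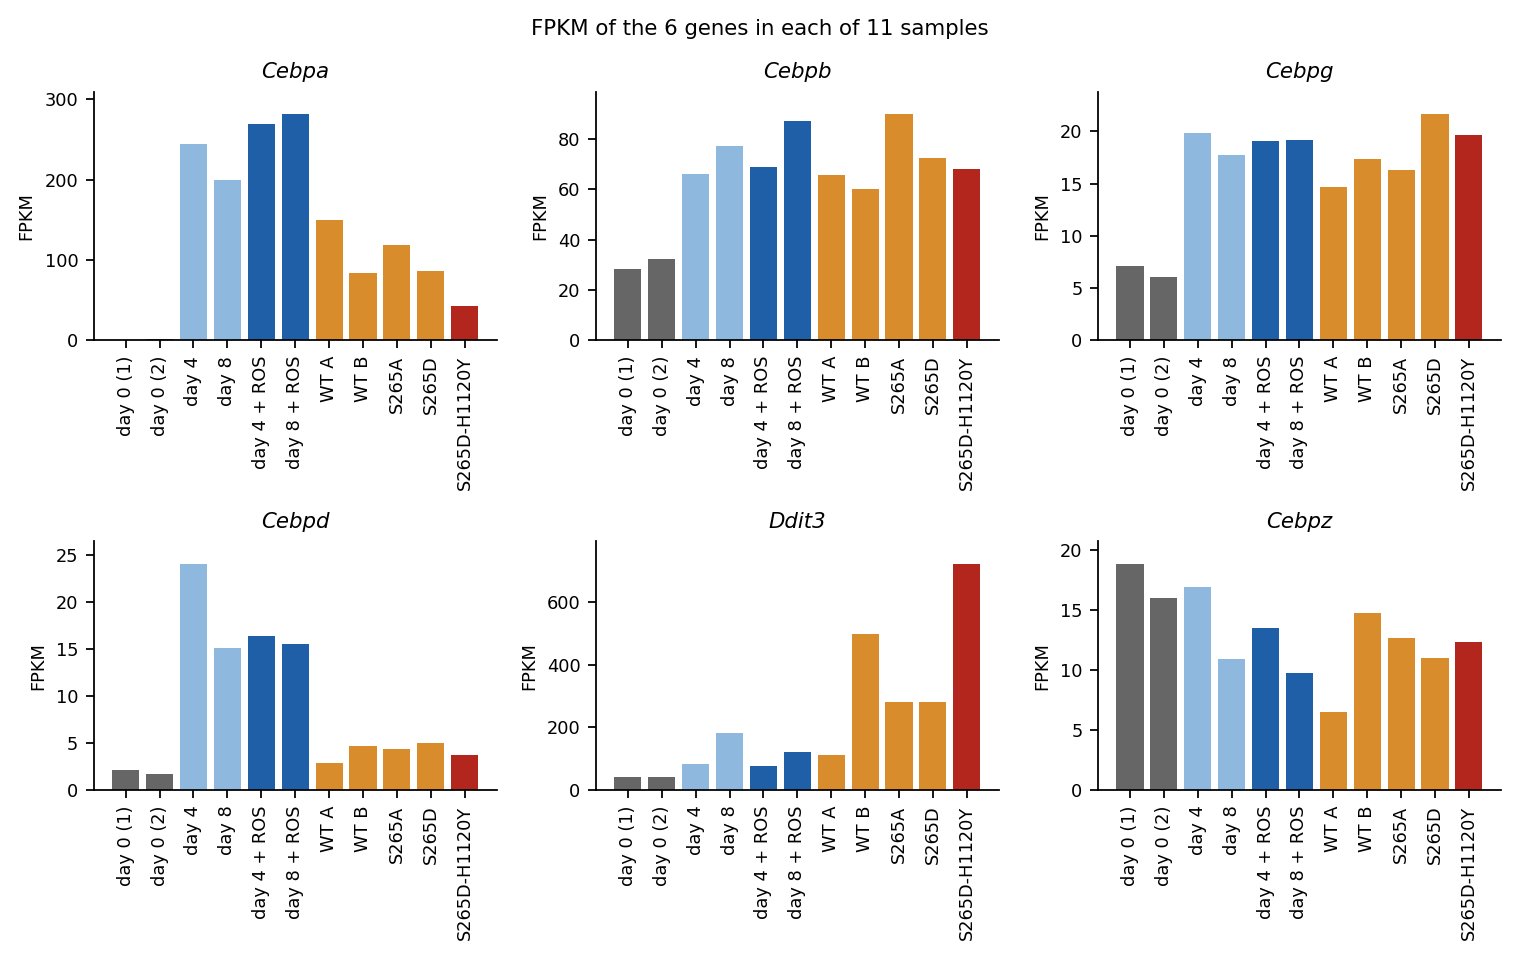
FPKM (vertical axes, linear and starting at 0) of the 6 genes in each of the 11 samples, 1 bar per sample: day 0 in grey, induced cultures without ROS in light blue and with ROS in dark blue, transduced cultures in orange and S265D-H1120Y in red. Cebpa goes from 0.789 and 1.04 at day 0 to 281 at day 8 with ROS, Cebpd is high only in the 4 untransduced induced cultures, and Ddit3 peaks at 721 in S265D-H1120Y.

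The share of each bZIP member in their summed FPKM shows the change of balance. At day 0 Cebpb made up 35.8% and 39.8% of the sum of Cebpa, Cebpb, Cebpd, Cebpg and Ddit3, Ddit3 51.6% and 49.2%, and Cebpa 0.993% and 1.29%. In the 4 untransduced induced cultures Cebpa made up 40.7% to 60.0% and was 2.59 to 3.92 times Cebpb, against 0.0277 and 0.0324 times at day 0. In the transduced cultures Cebpa was 2.28 times Cebpb in WT A, 1.38 in WT B, 1.31 in S265A, 1.19 in S265D and 0.634 in S265D-H1120Y. The last was the only induced culture in which Cebpb exceeded Cebpa. Ddit3 made up 16.8% to 37.0% of the sum in the untransduced induced cultures and 32.5% in WT A, but 55.1% in S265A, 60.3% in S265D, 74.98% in WT B and 84.3% in S265D-H1120Y.

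**Figure D2:**
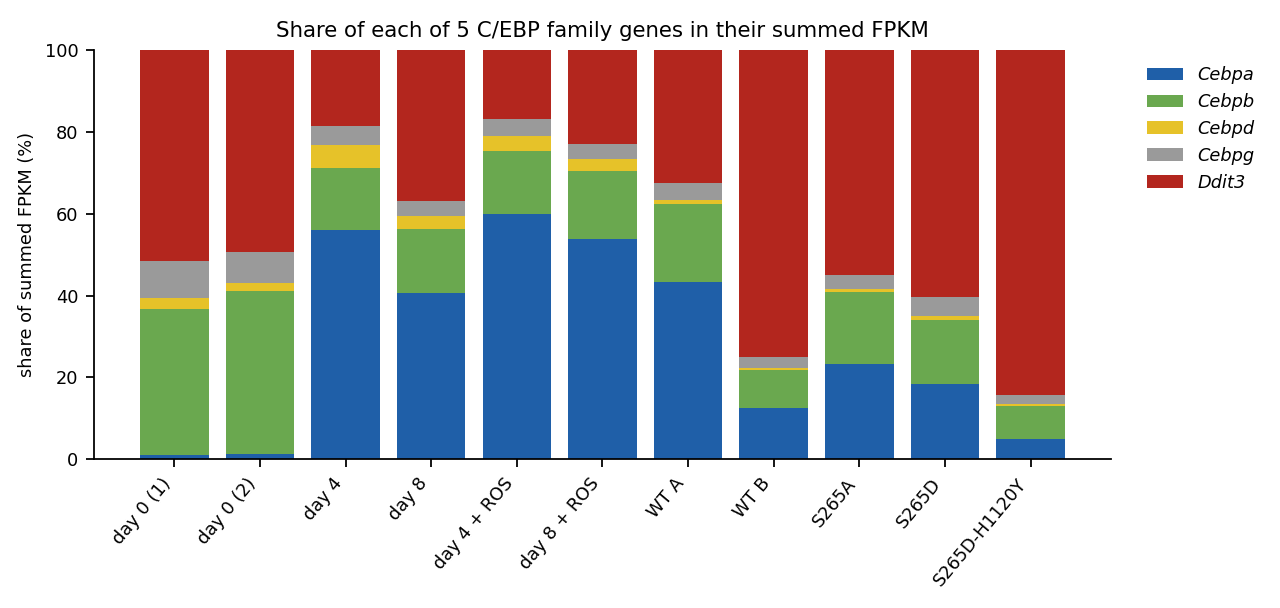
Share (vertical axis, percent) of Cebpa, Cebpb, Cebpd, Cebpg and Ddit3 in their summed FPKM, 1 stacked bar per sample. Cebpa is about 1% of the sum at day 0, 60.0% at day 4 with ROS and 5.04% in S265D-H1120Y, where Ddit3 takes 84.3%.

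Adipocyte genes with C/EBP binding sites, a list that includes all the adipocyte markers, were higher in induced cultures, as Cebpa was. Whether C/EBP factors drove their rise was not tested. Of 18 such genes 17 were higher in induced cultures and 0 lower, where 16.5% of all genes tested were higher and 17.7% lower. Their median difference was 5.99 (log2) against 0.01 over all genes. Adipoq, which encodes adiponectin, rose by 12.0, Cidec, a lipid droplet protein, by 11.7, and Cfd, the serine protease adipsin, by 11.6, and each was at or below 0.189 FPKM at day 0, so that these sizes depend on the pseudocount. The exception was Lep, the leptin gene, at 0 FPKM at day 0 and at most 0.252 FPKM later. Among 20 adipogenic transcription factors 8 were higher and 4 lower, against the same 16.5% and 17.7% of all genes, with a median of 0.65. Klf15 (6.27), Nr1h3 (6.19) and Pparg (2.54), the last the partner of C/EBPα, were among those that rose, and Gata2 (-2.59), which holds back adipogenesis, and Fosl2 (-1.73) among those that fell. Of 20 bZIP partners and relatives tested 3 were higher and 3 lower, no more than these shares of all genes. Hlf, a PAR-domain factor, rose by 3.24, while the AP-1 genes Fosl1 (-2.53), Junb (-2.0) and Fosl2 fell.

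Day 4 against day 0 asked how far each gene had moved by the first induced sample. In the fit of the time course, with the day 0 pair as the only source of spread and 1 residual degree of freedom, 5 of 6 members were called higher both with ROS, where 17.1% of 16400 genes were called higher and 17.6% lower, and without it, where 15.2% were called higher and 13.9% lower. The 2 comparisons share the day 0 samples. With ROS the differences were 8.07 for Cebpa, 3.06 for Cebpd, 1.52 for Cebpg, 1.19 for Cebpb and 0.90 for Ddit3, and without ROS 7.92, 3.61, 1.58, 1.12 and 1.01 in the same order. Adjusted p-values from limma lay between 0.0235 and 0.0465. Cebpz differed by -0.36 with ROS (adjusted p = 0.219) and -0.03 without (0.893). No gene of the whole table was called when either day 0 sample was left out, and in 1 fit of all 11 samples, where 442 genes were called with ROS and 251 without, Cebpa was the only member called. With a day 0 sample left out, the spread came from the WT pair, which lay further apart. That fit therefore does not show how far the calls rest on 1 day 0 sample. Without a filter on low values none of the 6 members was called at day 4, with adjusted p-values of at least 0.0747 with ROS and 0.0850 without.

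From day 4 to day 8 most members changed little, and Ddit3 differed most. Of 16400 genes 0 were called in limma with or without ROS (0% higher and 0% lower), and 4565 and 4424 had an unadjusted p under 0.05. Ddit3 went from 81.2 to 182 FPKM without ROS, a difference of 1.16 ± 0.08 (log2, adjusted p = 0.164), and from 75.6 to 120.3 with ROS, 0.67 ± 0.08 (adjusted p = 0.143). The spread behind both SE came from the day 0 pair alone, with none between induced cultures. That pair lay 0.046 (log2) apart in Ddit3, against 2.15 for the WT pair. The other 5 members differed by at most 0.67 either way. Cebpd differed most among them, by -0.67 without ROS and -0.08 with it. Atf3, a stress-induced relative, went beside Ddit3 from 3.59 to 25.02 FPKM without ROS and from 4.07 to 22.3 with it.

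The cultures with and without ROS were compared to ask how beige and white adipocytes differ. No gene of 16400 was called in limma at day 4, at day 8 or averaged over both (0% each), with 1862, 5011 and 2901 genes at an unadjusted p under 0.05. Cebpa was 281 FPKM with and 200.2 without ROS at day 8, a log2 difference of 0.49 ± 0.27 (adjusted p = 0.354), and 0.14 ± 0.27 at day 4. Ddit3 was 120.3 against 182 FPKM at day 8, -0.60 ± 0.08 (adjusted p = 0.115), and -0.10 at day 4. The spread behind the SE of each day again came from the day 0 pair alone, with none between induced cultures. The median of all genes was itself -0.20 at day 8, and -0.02 after median-of-ratios scaling, which gave 0.68 for Cebpa and -0.40 for Ddit3. Cebpb, Cebpd, Cebpg and Cebpz differed by at most 0.18 at day 8, and at day 4 Cebpd showed the largest difference of the 6, -0.55 ± 0.23. The ROS effect at day 8 minus that at day 4 was -0.49 for Ddit3 (adjusted p = 0.294) and 0.35 for Cebpa (0.684), and 0 of 16400 genes passed this test of the difference.

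Beside these values stood the C/EBP-site genes, of which 5 of 18 were at least 2-fold higher and 1 at least 2-fold lower with ROS at day 8, against 2.9% and 10.9% of all genes. Their median was 0.49 against -0.20. Pck1 (2.40, 2.04 FPKM with and 0.306 without ROS), which encodes a gluconeogenic and glyceroneogenic enzyme, Cidec (2.26) and Fabp4 (2.04), the fatty acid carrier of fat cells, were highest, and Lep (-1.82, 0 FPKM with and 0.252 without ROS) lowest. Adjusted p was 0.0972 for these 4, and none passed. The sizes for Pck1 and for Lep, the 1 lower gene, depend on the pseudocount. Whether C/EBP factors or PPARγ, which ROS binds, drove the differences of the listed genes was not tested. Of the 25 stress genes 1 was at least 2-fold higher and 1 lower.

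Transduced cultures were set against untransduced induced cultures after the values were seen, because Cebpa and Cebpd separated there. Experiment and transduction cannot be told apart in this comparison, and the untransduced set also holds day 4 and ROS-free cultures. In limma 0 of 6 members were called higher and 2 lower, where 7.4% of 16789 genes were called higher and 9.2% lower. Cebpd was 15.1 to 24.0 FPKM in the 4 untransduced and 2.84 to 5.03 FPKM in the 5 transduced cultures, with no overlap, a difference of -2.08 ± 0.21 (log2, adjusted p = 0.00118). Cebpa was 200.2 to 281 and 43.2 to 149.99 FPKM, with no overlap, -1.48 ± 0.32 (adjusted p = 0.0151). The comparison was chosen for this separation, and the share of all genes without overlap between the sets was not counted. Against the 2 untransduced day 8 cultures alone Cebpd kept its call (-1.90, adjusted p = 0.0192) and Cebpa did not (-1.42, adjusted p = 0.0972), nor without a filter on low values (adjusted p = 0.0536, in a range of 0.00619 to 0.0972 over 11 alternatives). Ddit3, at 75.6 to 182 and 112 to 721 FPKM, overlapped and differed by 1.55 ± 0.49 (adjusted p = 0.0563). It passed without WT A (1.93, adjusted p = 0.00990), with median-of-ratios scaling (0.0447), with a mean-variance trend (0.0401) and with the filter raised to 1 FPKM (0.0485), in a range of 0.00990 to 0.308.

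Cebpb, Cebpg and Cebpz differed by -0.08, -0.09 and -0.17 between these sets (adjusted p of 0.664 to 0.771), and the signs of Cebpb and Cebpg turned with median-of-ratios scaling, which moved the median of all genes from -0.03 to 0.07. WT alone against the untransduced day 8 culture with ROS gave -2.06 ± 0.40 for Cebpd (adjusted p = 0.332), -1.33 for Cebpa (0.369) and 0.97 for Ddit3 (0.698), in a limma fit with 2 residual degrees of freedom that called 0 of 17075 genes (0%) and had 2345 at an unadjusted p under 0.05. Without WT B the difference of Ddit3 was -0.10.

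The induction medium held the glucocorticoid dexamethasone and IBMX, a phosphodiesterase inhibitor that raises cAMP, and both were withdrawn at day 2, before the first induced sample. Of 12 genes that respond to glucocorticoid or cAMP, classical inducers of Cebpd and Cebpb, 2 were higher and 4 lower in the transduced cultures. Over all genes tested 7.4% were higher and 9.2% lower, and the median of the 12 was -0.68 against -0.03. Fkbp5, a standard glucocorticoid target, was 127 to 179.8 FPKM in the untransduced and 28.9 to 49.1 FPKM in the transduced cultures (-2.13, adjusted p = 0.00104). Sgk1 (-1.64, adjusted p = 0.00720) and Pde4b (-1.29, adjusted p = 0.0184) were also lower, while Pde4d (1.07, adjusted p = 0.0334) and Klf9 (0.74, adjusted p = 0.0168) were higher. Their part in the difference of Cebpd was not tested. In the induced cultures as a whole against day 0, 6 of these 12 genes rose and 1 fell, where 16.5% and 17.7% of all genes tested did. Zbtb16 (5.95) and Tsc22d3 (2.84) led, and Sgk1 (-2.27) fell. The C/EBP-site genes did not move with Cebpa between the transduced and untransduced sets: 2 of 18 were higher (Cd36, 1.24, and Scd1, 0.89) and 1 was lower (Dgat2, -1.07). Of all genes tested 7.4% were higher and 9.2% lower, and the median of the 18 was -0.14.

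**Figure D3:**
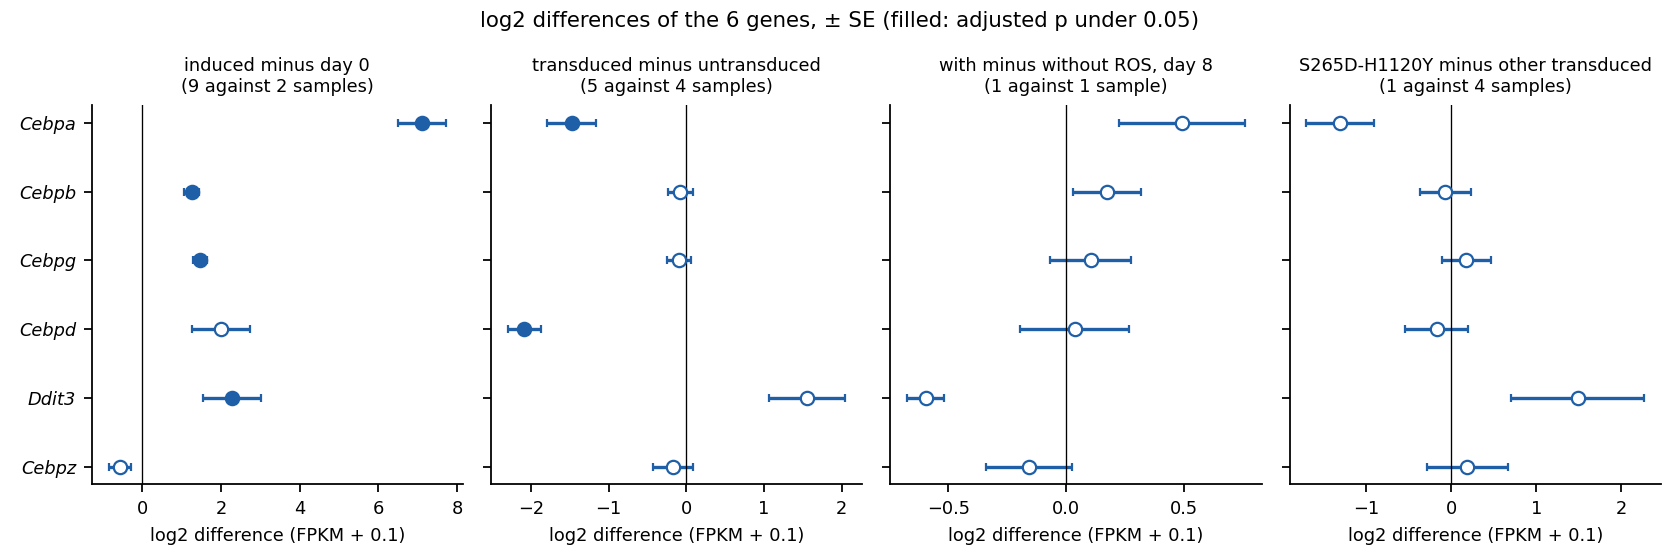
Log2 difference of FPKM + 0.1 (horizontal axes, whose scales differ) with its SE for the 6 genes in 4 comparisons, filled where the adjusted p was under 0.05. Cebpa, Cebpb, Cebpg and Ddit3 are filled for induction, and Cebpa and Cebpd for transduction. No gene is filled for ROS at day 8 or S265D-H1120Y. For ROS at day 8 the spread behind the SE comes from the day 0 pair alone.

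The mutants of hJMJD1A ask for the part of the phosphorylated serine and of the catalytic histidine. With the WT pair as the only source of spread, limma called 0 of 16402 genes in each comparison (0%), and 107 genes in S265A against WT, 99 in S265D against WT and 187 in S265D-H1120Y against S265D had an unadjusted p under 0.05. The differences of the 6 members against WT were within 0.51 (log2) for S265A and 0.46 for S265D, with SE from 0.39 to 1.16. For Ddit3 they were 0.25 ± 1.16 and 0.25 ± 1.16, but -0.82 against WT B alone in both mutants and 1.32 and 1.33 against WT A alone. The labels do not say which WT sample belongs with which mutant, so the direction for Ddit3 is not settled. The WT pair was 4.43-fold apart in Ddit3, and 95.8% of genes had a smaller gap. It was 2.27-fold apart in Cebpz, 1.80-fold in Cebpa, 1.64-fold in Cebpd, 1.18-fold in Cebpg and 1.09-fold in Cebpb. Beside the gap in Ddit3 the adipocyte markers did not move as 1 set. Fabp4 was 12393 FPKM in WT A and 26902 in WT B, while 4 of the 6 (Adipoq, Plin1, Cidec and Cfd) were lower in WT B, and the sum without Fabp4 was 3587 and 2943 FPKM. The summed FPKM of the preadipocyte markers was 141 and 555, most of it Ly6a (116 and 496), and that of the beige markers 202 and 25.6. Their part in it was not tested.

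S265D-H1120Y held the lowest Cebpa and the highest Ddit3 of all induced cultures. Against S265D, the comparison of the design, Cebpa was 43.2 against 86.4 FPKM (-0.999 ± 0.67, adjusted p = 1, limma) and Ddit3 721 against 281 FPKM (1.36 ± 1.34, adjusted p = 1), while the other 4 differed by at most 0.45. Against all 4 other transduced cultures as 1 set, a comparison added after the values were seen, Cebpa differed by -1.30 ± 0.40 (adjusted p = 0.808, limma) and Ddit3 by 1.49 ± 0.78 (adjusted p = 0.908). In that fit 0 of 16402 genes were called (0%), with 978 at an unadjusted p under 0.05. The ratio of Ddit3 to Cebpa was 16.7 in S265D-H1120Y, 5.96 in WT B, 3.26 in S265D, 2.37 in S265A and 0.748 in WT A, and 0.280 to 0.909 in the untransduced induced cultures. The sample is 1 library, so none of these differences has a replicate of its own.

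Genes of the integrated stress and unfolded protein response, the pathways that switch on Ddit3, stood with it in this sample. Of 25 such genes 23 had their highest FPKM among the 5 transduced cultures in S265D-H1120Y, where 19.7% of all genes did. The summed FPKM of the 25 was 6022 there, 2911 in WT B, 3603 in S265A, 2579 in S265D and 2234 in WT A. Against S265D 12 of 25 were at least 2-fold higher and 0 lower, where 3.71% of all genes were higher and 6.04% lower, with a median of 0.96 against -0.05. Against the 4 other transduced cultures 13 of 25 were at least 2-fold higher, where 3.55% of all genes were, with a median of 1.04 against -0.05. No adjusted p in these lists was under 0.05.

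Hspa5, the chaperone BiP, was 1382 FPKM in S265D-H1120Y and 268 to 602 FPKM in the 4 other transduced cultures. Atf3, which carries the stress signal with Ddit3, was 132 FPKM against 6.38 to 37.7, and Sdf2l1, an endoplasmic reticulum protein, 45.9 against 9.92 to 16.8. Atf4, the translationally controlled activator of Ddit3, was 505 FPKM against 196 to 399. Ero1l, an oxidase of the endoplasmic reticulum that CHOP activates, was 996 FPKM against 193 to 464, and Trib3, a pseudokinase gene of the same response, 156 against 41.3 to 96.0. The members were not all in order with Ddit3 elsewhere: S265A had the second highest Hspa5 (602) and Ero1l (464) of the 5, while WT B had the second highest Ddit3 (497) and Trib3 (96.0). In the induced cultures against day 0, 8 of these 25 stress genes rose and 0 fell, where 16.5% and 17.7% of all genes tested did. Ero1l (3.62), Trib3 (2.94) and Slc7a11 (2.71) led. In transduced against untransduced cultures 4 rose and 1 fell, where 7.4% and 9.2% of all genes tested did. Among them were Ero1l (2.43, adjusted p = 0.00657, limma) and Atf5 (-1.02, adjusted p = 0.0373).

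The C/EBP-site genes stood with Cebpa in S265D-H1120Y. None of the 18 had its highest value there among the transduced cultures, and against the 4 others 0 were at least 2-fold higher and 4 at least 2-fold lower, where 3.77% of all genes were lower, with a median of -0.57 against -0.05. Pck1 (-2.26), Agpat2 (-1.44), an enzyme of triglyceride synthesis, and Retn (-1.28), the hormone resistin, were lowest, each with an adjusted p above 0.7 in limma. Pck1 was 0.249 FPKM there against 0.734 to 3.46 FPKM, so that its size depends on the pseudocount. The 6 adipocyte markers are all part of the 18, so they are no separate observation. Of the 6 adipocyte markers 3 were lowest of the 5 transduced cultures there, Adipoq at 396 FPKM against 589 to 978, Cidec at 538 against 767 to 1230.2 and Plin1 at 148 against 158 to 293. Fabp4, at 14128 against 12393 to 26902 FPKM, Lpl and Cfd were not lowest, and the sum without Fabp4 was 2066 FPKM against 2763 to 3587. The preadipocyte markers summed to 209 FPKM, of which Ly6a made 165, against 141 to 555. Cd68, which is not confined to macrophages, was 21.7 FPKM against 5.00 to 16.6, with Ptprc and Emr1 at 0. In bulk RNA fewer adipocytes and less RNA per adipocyte cannot be told apart, and the part of these markers in the values of Cebpa and Ddit3 was not tested.

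**Figure D4:**
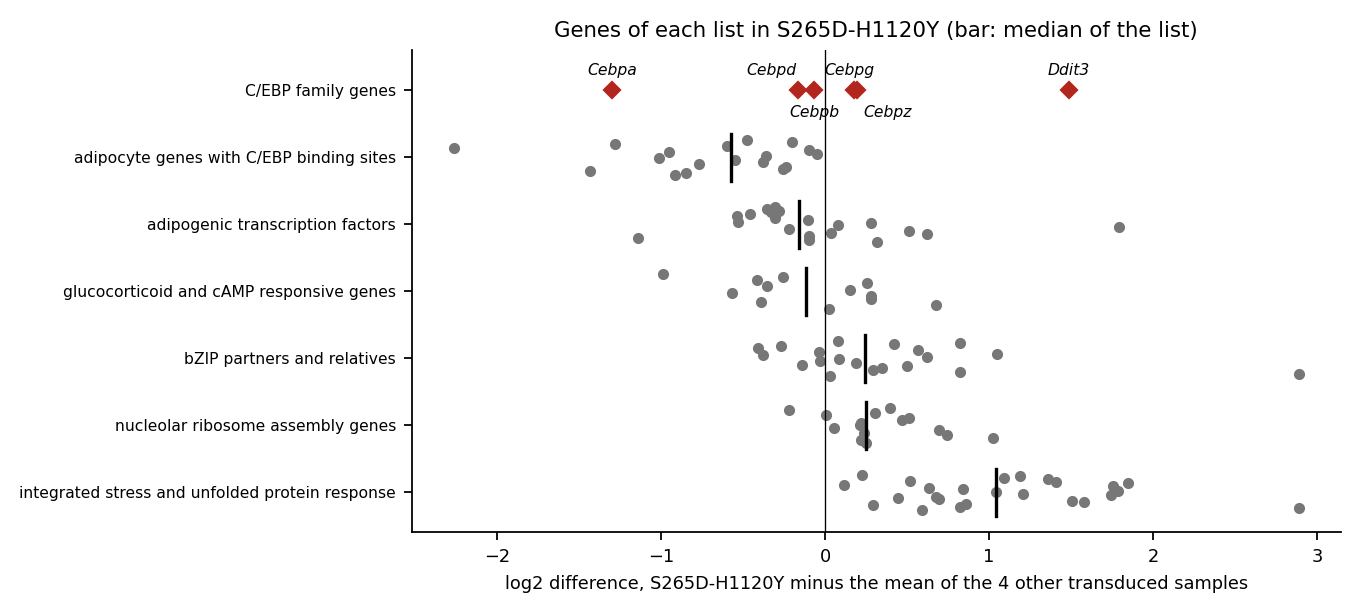
Log2 difference between S265D-H1120Y and the mean of the 4 other transduced samples (horizontal axis, FPKM + 0.1) for each gene of 6 lists (grey, bar at the median) and for the 6 C/EBP genes (red). Ddit3 (1.49) lies to the right with the stress genes, median 1.04, and Cebpa (-1.30) to the left with the C/EBP-site genes, median -0.57.

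The levels of each gene were put in order over the 9 conditions. A step between neighbours was held against the gap within both pairs, day 0 and WT. For Cebpa 2 of 8 steps were larger than both gaps, that from S265D (86.4) to S265D-H1120Y (43.2) and that from there to day 0. For Cebpd they were the step from the lowest untransduced induced culture (15.1) to S265D (5.03) and that from WT to day 0. For Cebpb and Cebpg it was only the step down to day 0, and for Cebpz and Ddit3 none, where the WT gap was 2.27-fold and 4.43-fold. Other neighbours in these orders did not differ beyond the pair gaps. A single gap per pair is no estimate of spread, so a larger step is not shown to exceed it. In limma the Cebpa step from S265D to S265D-H1120Y was -0.999 ± 0.67.

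Other genes followed each member across the 11 samples. Among 13615 genes that reached 1 FPKM in some sample, the highest Pearson r of log2(FPKM + 0.1) with Cebpa was that of Fam83a (0.998), followed by 1190002H23Rik (0.998) and Abhd15 (0.997). For Cebpb they were Slc25a39 (0.977), Foxo1 (0.974) and Dlx4 (0.972), and for Cebpg Lpl (0.984), the lipoprotein lipase gene, Paip2 (0.980) and AK139182 (0.977). For Cebpd they were Scfd2 (0.973), Pank2 (0.972) and Fam116a (0.963), and for Cebpz Wdr3 (0.974), Slc4a1ap (0.971) and Nedd9 (0.964). Prnp (0.977), Gadd45a (0.976), a growth arrest and DNA damage gene, and LOC100499420 (0.973) were nearest to Ddit3. These are descriptions over 11 samples that share their libraries, with the day 0 pair apart from the rest.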

How the data were processed

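The 11 RNA-seq samples of im-scWAT cells were grouped by the day, ROS and hJMJD1A form in their labels. The authors sequenced TruSeq libraries, mapped them with BWA onto the UCSC gene set and the mm9 genome with a local realignment step, and deposited strand-specific FPKM for each of 55419 transcripts. The deposited files also hold the log10 and the log2 of the FPKM and the coverage, in mapped bases, which served only for depth. A sum of bases is no read number, so count models were not applied.

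Each of 29955 symbols was represented by its sense transcript with representFlg 1. The log2(FPKM + 0.1) of every gene that reached 0.1 FPKM in a sample of the fit was tested in limma (3.58.1, under R 4.3.3), with Benjamini-Hochberg adjustment at 0.05. The script was tested on simulated data. Figures and descriptions were made with Python 3.11.15, pandas 2.3.3, numpy 2.4.6 and matplotlib 3.10.9. The members and lists were chosen with earlier results of these data known. Genes named are the 6 members, at most the 3 highest and 3 lowest of each list in a comparison, and the 3 genes most like each member. Atf4, Ero1l, Trib3, Cd68, Ly6a, Acta1, Cd14 and Pecam1 values in single samples, and list genes of the transduced against untransduced comparison, were chosen after their values were seen. Alternatives were pseudocounts of 0.01 and 1, no filter and an FPKM of at least 1, median-of-ratios scaling, a mean-variance trend, the transcript with the highest FPKM, 1 fit of all 11 samples, and leaving out each replicate of a pair. Comparisons of transduced with untransduced cultures and of S265D-H1120Y with the other transduced cultures, and the time course alone, were added after seeing the data.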

Additional observations from a re-analysis of the deposited data

Results flagged for a closer look

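No condition had more than 2 samples, so no sample could be tested for standing apart from its group, and the difference of the ROS effect between days 4 and 8 passed the test for no member (adjusted p of 0.294 to 0.814, limma). The antisense rows of the loci, which no comparison used, held signal in all 9 induced cultures above the higher of the 2 day 0 samples at 4 of the 6 genes. At Cebpa the antisense FPKM was 0 and 0.0483 at day 0 and from 0.368 to 3.83 after induction, with a median of 0.864. At Cebpb it was 0.0988 and 0.382 at day 0 and from 0.449 to 0.950 after induction, at Cebpd 0.0188 and 0.0189 and from 0.0473 to 0.242, and at Cebpg 0.0542 and 0.0181 and from 0.0629 to 0.325. Antisense signal was also higher after induction over the whole tables, where it held 1.52% and 1.54% of mapped bases at day 0 and 1.90% to 2.28% in the 9 induced cultures. Of 7151 antisense rows that reached 0.1 FPKM in a sample, 14.2% were above both day 0 samples in all 9 induced cultures and 8.99% below both in all 9. The antisense values at Ddit3 (0.780 to 1.54 at day 0, 1.03 to 4.80 later) and Cebpz (0.961 to 1.08, 0.687 to 1.80) overlapped between day 0 and induced cultures. The source of the antisense signal was not tested.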

How the results depend on the processing

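Of 852 recomputed member differences, 779 kept their direction and side of the threshold, 19 changed direction, 46 lost and 8 gained a call. The causes were not tested. Leaving out 1 of a pair left fewer residual degrees of freedom where sets of samples, the ROS average or WT against untransduced day 8 were compared. Between single time course conditions and between hJMJD1A forms it left 1, as before, but the other pair then gave the spread. Without a filter on low values the genes called were 2363 (day 4 against day 0 with ROS), 1925 (the same without ROS), 1773 and 1809 (day 8 against day 4 with and without ROS), 1434, 2042 and 41 (ROS at day 4, at day 8 and averaged), 414 (WT against untransduced day 8), 1828 (transduced against untransduced) and 296 (S265D-H1120Y against the other transduced). An FPKM of at least 1 gave 895 for ROS at day 8, a pseudocount of 0.01 gave 29 for S265D-H1120Y against the others, and 1 fit of all samples gave 442 and 251 for day 4 against day 0 with and without ROS. Transduced against untransduced gave 1847 without S265D-H1120Y and 965 with day 8 only. Leaving out 1 replicate gave 2387 to 5818 for preadipocytes against induced cultures (2473 and 2387 without day 0 sample 1 and 2), and 0 to 0 for day 4 against day 0. With median-of-ratios scaling the direction changed for Cebpd (0.022, day 8 against 4 with ROS), Cebpg (0.0042, ROS at day 4), Cebpz (0.033, ROS at day 8), and Cebpb (0.034) and Cebpg (0.016) in transduced against untransduced, where Cebpz gave 0.10 with day 8 only. Leaving out 1 replicate turned the direction in these ranges: against WT, S265A gave -0.34 to 0.50 (Cebpa), -0.089 to 0.60 (Cebpd), -0.094 to 0.15 (Cebpg), -0.21 to 0.96 (Cebpz) and -0.82 to 1.32 (Ddit3), and S265D -0.80 to 0.052 (Cebpa), -0.42 to 0.75 (Cebpz) and -0.82 to 1.33 (Ddit3). WT against untransduced day 8 gave -0.58 to 0.59 (Cebpz) and -0.10 to 2.04 (Ddit3), and Cebpz gave -0.15 to 0.086 in day 4 against day 0 without ROS, -0.28 to 0.015 in transduced against untransduced and -0.048 to 0.34 in S265D-H1120Y against the others. No paired analysis was made, because only WT carried replicate letters and the other conditions had 1 sample. The labels do not link either WT sample to a mutant. At these depths a low FPKM rests on few bases, and 100 bases on 2 kb of exon give 0.00944 to 0.0161 FPKM.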
